A study of Rattus norvegicus with 86 samples.

Results

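Transthyretin (Ttr, ENSRNOG00000016275) was followed across RNA-Seq libraries of the nucleus accumbens core (NAcc), a part of the ventral striatum, from outbred heterogeneous stock (HS) rats. It is 1 of the 17180 genes in the expression table and was taken by its gene identifier. The table held 75 libraries, 1 per rat, from 38 females and 37 males in rat batches 2 to 6. The rats had received no drug or behavioral treatment and were housed in groups, and the labels gave no age. The tissue of both hemispheres had been taken with forceps from frozen sections, and mRNA was sequenced. Rat batches 2, 3, 4, 5 and 6 gave 12, 20, 26, 1 and 16 libraries. The labels name these batches without saying what defines them.

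Transthyretin is a secreted carrier of thyroxine and, together with Rbp4, of retinol. The liver supplies it to the blood. In the brain it is made chiefly by the epithelium of the choroid plexus, the tissue that hangs in the ventricles and secretes cerebrospinal fluid, and its mRNA is among the most abundant there. For this reason its level in a dissected brain region is often read as a trace of choroid plexus, and the values below were examined beside other genes of that epithelium.

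The libraries held 17738142 ± 3102926 recovered counts (SD, n = 75), from 8455344 in male 5 of rat batch 2 to 26145621. A recovered count is the whole read count of a gene in a library, estimated from the steps in the deposited values. It is not exact where neighboring read counts share a deposited value after scaling and rounding. Between 317 and 1399 genes of a library were at 0. Of 12 fixed genes of striatal projection neurons, 4 could be matched by symbol, and all were abundant in every library. Penk, which encodes enkephalin, had 8952 to 42753 counts and Pdyn, which encodes dynorphin, 4000 to 16784 counts. Gng7, a G protein subunit of striatal neurons, had at least 8561 counts, and Pde10a, a phosphodiesterase of the same cells, at least 907.

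Ttr was a low-count gene with a long upper tail. Its recovered count had a median of 12 and ran from 0 to 303. As CPM, the count scaled by the total count of its library, the median was 0.731 and the highest value 16.4. On the deposited scale, log2(scaled count + 1), the median was 3.91 and the highest value 8.23. Counts of 3 or fewer occurred in 14 of 75 libraries and 10 or more in 45. Ttr had 2929 counts over all libraries, and the 10 highest libraries held 2057 of them, or 70.2%. The counts had no library between 42 and 97, although on the log2 scale the values formed no separate cluster.

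**Figure D1:**
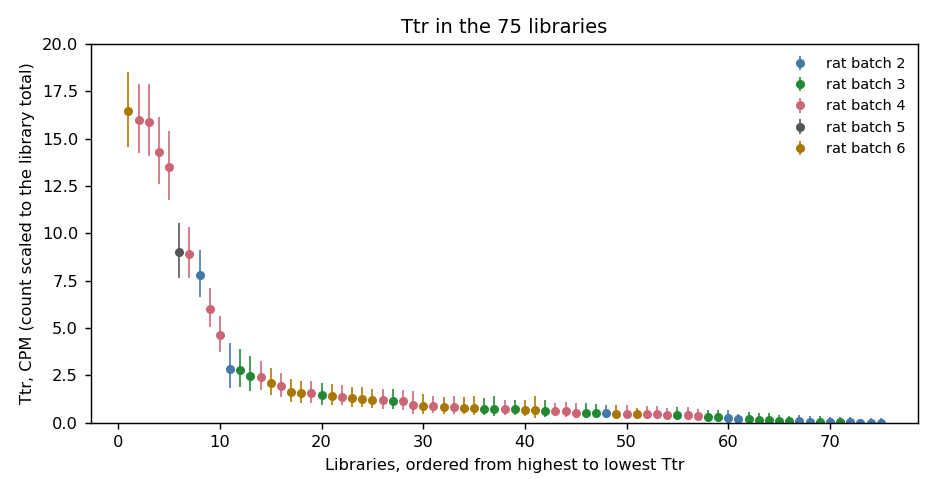
Ttr in CPM (y axis) in the 75 libraries ordered from highest to lowest (x axis), with exact 95% binomial intervals that cover counting error only. Colors mark the rat batch. The highest libraries reach 16.4 CPM, and the median is 0.731.

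The 10 highest libraries came from 4 rat batches and both sexes. Female 9 of rat batch 4 had 303 Ttr counts, with an exact 95% binomial interval of 14.2 to 17.9 CPM. Male 12 of rat batch 4 had 279 counts, or 15.9 CPM (14.1 to 17.9). Male 4 of rat batch 6 had 274 counts, or 16.4 CPM (14.6 to 18.5). These intervals overlapped, so the order of these 3 rats was not resolved at this depth.

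Male 10 of rat batch 4 had 14.3 CPM (12.6 to 16.2) and female 13 of rat batch 4 had 13.5 CPM from 218 counts. Female 2 of rat batch 4 had 176 counts (8.91 CPM), male 7 of rat batch 2 had 158 (7.82 CPM) and female 1 of rat batch 5 had 156 (9.01 CPM). Male 1 of rat batch 4 followed with 135 counts and male 2 of rat batch 4 with 97. Of these 10 rats, 7 belonged to rat batch 4 and none to rat batch 3. Their libraries held 16171984 to 22487344 counts, inside the range of all libraries.

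At the other end, males 4, 8 and 10 of rat batch 2 had no Ttr count. A count of 0 allows up to 3 counts, which in these libraries is 0.181, 0.219 and 0.197 CPM. The two-sided exact 95% intervals, as plotted by rank, reach higher, to 0.223, 0.269 and 0.242 CPM. The highest library, at 16.4 CPM, lay far above these limits. In male 5 of rat batch 2, the shallowest library, 24 counts gave 2.84 CPM (1.82 to 4.22). All of these intervals and limits cover counting error only.

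Ttr varied more between rats than most genes did. Its SD among rats of the same sex and rat batch was 1.72 on the deposited log2 scale, against a median of 0.249 over all genes, and 232 of 17180 genes had a larger SD. Low counts alone widen such an SD. Among the 944 genes whose mean was within 0.5 log2 units of that of Ttr, the median SD was 0.73, and 48 had a larger SD than Ttr. In bulk tissue, fewer cells of a type and less RNA per cell cannot be told apart, and neither could be separated from tissue carried in by the dissection.

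Ttr was higher in rat batches 4 and 6 than in rat batch 2. In rat batch 2 the counts had a lowest value, median and highest value of 0, 1 and 158, and 7 of 12 libraries were at or below 3 counts. In rat batch 3 they were 1, 8 and 32, and 7 of 20 libraries were at or below 3 counts. In rat batch 4 they were 7, 18.5 and 303, and in rat batch 6 they were 7, 19.5 and 274. No library of rat batches 4 and 6 had fewer than 7 counts, although the ranges of all 4 batches overlapped. The single library of rat batch 5 had 156 counts and entered no test.

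Rat batch 2 had a mean log2 value of 2.09 ± 2.31 (SD, n = 12). The mean was 3.16 ± 1.42 (SD, n = 20) for rat batch 3 and 4.91 ± 1.80 (SD, n = 26) for rat batch 4. Rat batch 6 had 4.47 ± 1.15 (SD, n = 16). By limma's F test, with sex in the model, Ttr differed between the 4 batches (F = 10.3, adjusted p = 5.38e-05). The call was lost with 5 expression components as covariates (adjusted p = 0.183 by limma). The same test called 53.5% of the 17180 genes, so a difference between the batches was not particular to Ttr.

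Of the 6 pairs of batches, 3 differed in Ttr by limma. Rat batch 4 exceeded rat batch 2 by 2.91 ± 0.59 log2 units (SE, adjusted p = 0.000115 by limma), a pair in which 26.9% of genes were called. This is 7.53-fold on the log2(scaled count + 1) scale, and 35 genes had a larger absolute difference. The fold depends on the added 1, since most libraries of rat batch 2 were at or below 3 counts: the median level was 0.0688 CPM in rat batch 2 and 1.02 CPM in rat batch 4. Rat batch 6 exceeded rat batch 2 by 2.47 ± 0.64 (SE, adjusted p = 0.0017 by limma, 34.8% of genes called). Rat batch 4 exceeded rat batch 3 by 1.71 ± 0.49 (SE, adjusted p = 0.00336 by limma, 39.8% of genes called).

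From lowest to highest mean, the order was rat batches 2, 3, 6 and 4, and no difference between neighbors in this order passed the test. Rat batch 6 minus rat batch 3 was 1.26 ± 0.55 (SE, adjusted p = 0.0569 by limma, 43.1% of genes called). Rat batch 3 minus rat batch 2 was 1.20 ± 0.63 (SE, adjusted p = 0.273 by limma, 3.44% called), and rat batch 6 minus rat batch 4 was -0.45 ± 0.52 (SE, adjusted p = 0.686 by limma, 3.87% called).

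**Figure D2:**
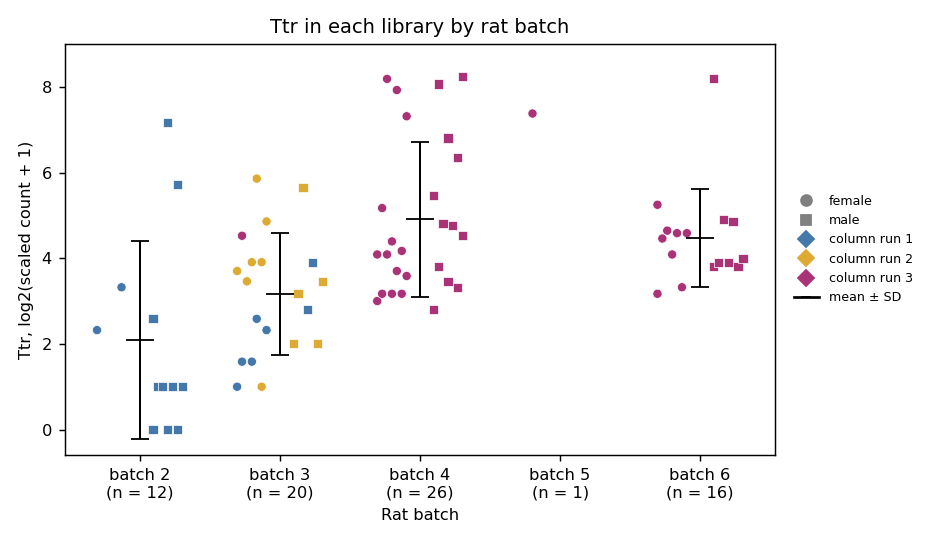
Ttr in each library as deposited, log2(scaled count + 1) (y axis), by rat batch (x axis). Circles are females, squares males, colors the 3 runs of table columns, and bars the mean ± SD of each batch of more than 1 library. Values in rat batches 4 and 6 start at 2.81, whereas 3 males of rat batch 2 are at 0.

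Rat batch and the order of the table's columns could not be separated for Ttr. The columns fall into 3 runs within which the sample titles ascend, of 19, 12 and 44 libraries, and the labels do not say what a run is. All libraries of rat batch 2 are in the first run. Those of rat batches 4, 5 and 6 are all in the third. Rat batch 3 has 7, 12 and 1 libraries in the 3 runs. The median Ttr count was 2 in the first run, 9 in the second and 22 in the third. With sex as a covariate, Ttr differed between the runs (limma, adjusted p = 3.18e-06, 55.1% of genes called). The second run exceeded the first by 1.47 ± 0.59 log2 units and the third exceeded the first by 2.62 ± 0.44 (SE).

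With rat batch and sex both as covariates, the test of the runs gave an adjusted p of 0.437 for Ttr (limma, 6.8% of genes called). The estimates were 1.29 ± 0.77 for the second run and 2.34 ± 1.73 for the third (SE), close to those with sex alone but with larger errors. The test of rat batches lost its call when the run was a covariate (limma, adjusted p = 0.954). Within rat batch 3, where 2 runs can be compared, the 12 libraries of the second run averaged 3.58 ± 1.45 (SD) and the 7 of the first 2.26 ± 0.97 (SD). This difference of 1.32 log2 units gave p = 0.0453 in a two-sided exact permutation test, and their ranges overlapped. The comparison of runs was chosen after the values had been seen.

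No sex difference in Ttr passed the test. Females had a lowest, median and highest count of 1, 12.5 and 303, and males 0, 12 and 279. Males minus females, with rat batch as a covariate, was 0.27 ± 0.40 log2 units (SE, adjusted p = 0.951 by limma), a test that called 15 genes, or 0.0873%. Whether the sex difference depended on the batch was tested in rat batches 3, 4 and 6 and gave an adjusted p of 1.00 for Ttr (unadjusted p = 0.925 by limma). That interaction called 0 genes (0%), and 506 genes had an unadjusted p under 0.05.

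No gene passed the test for following Ttr within rat batch. Each of the other 17179 genes was regressed on Ttr with limma, with a mean of its own for each sex and rat batch, over 74 libraries. After adjustment 0 genes (0%) were called, the smallest adjusted p was 0.497, and 471 genes (2.74%) had an unadjusted p under 0.05. Permutation of the libraries within sex and batch gave 472 genes with an unadjusted p under 0.05 by Pearson's r and 549 by Spearman's rho. The smallest p that 100000 permutations can give is 1e-05, so a lone gene could not have passed after adjustment over 17179 genes, and no count of calls is drawn from them. The central 95% of r ran from -0.21 to 0.22 across genes, with a median of 0.00.

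Of 29 fixed genes of choroid plexus epithelium, 8 could be matched by symbol, and none of the 8 passed the test on Ttr. Their median r was 0.01, against 0.00 over all genes, and 4 of 8 had an r above 0. The other 21, among them Folr1, Kl and Kcnj13, could not be identified by symbol. Any of them in the expression table were tested with all other genes, but without a name. Identifiers without a symbol, also those given below, could therefore include members of this list. Unadjusted p values were under 0.05 for 2 of the 8, beside 2.74% of all genes. Ttr mRNA is among the most abundant in that epithelium and had at most 303 counts here, so its companions may add few counts. Such counts could be missed in Prlr, Otx2, Slc4a5, Aqp1 and Abca4, with medians of 2, 3, 8, 10 and 22. The same holds beside the medians of 846 for Enpp2 and 379 for Trpm3. The list therefore could not decide whether choroid plexus genes accompany Ttr.

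Slc4a5, a bicarbonate transporter of the choroid plexus epithelium, had the highest r of the list. It had 0 to 23 counts with a median of 8, and its highest library was female 9 of rat batch 4, also the library with the most Ttr counts. Slc4a5 had 8 and 14 counts in the next libraries by Ttr count, male 12 of rat batch 4 and male 4 of rat batch 6. Its r with Ttr was 0.31 and its rho 0.28 (permutation p = 0.0130 and adjusted p = 1.00 for r), and r was above 0 in each of the 4 batches. The slope was 0.19 ± 0.07 log2 units per log2 unit of Ttr (SE, adjusted p = 1.00 by limma).

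Enpp2, which encodes autotaxin and is made by choroid plexus and also by oligodendrocytes, had 345 to 1434 counts with a median of 846. Its r with Ttr was 0.29 and its rho 0.36. The slope was small, at 0.03 ± 0.01 (SE, adjusted p = 1.00 by limma). Opalin, a myelin protein and the only matched oligodendrocyte gene, had an r of 0.15 with Ttr.

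Otx2, a transcription factor of the choroid plexus epithelium, had an r of -0.09 with Ttr, at 0 to 10 counts and with 10 libraries at 0. Prlr, the prolactin receptor, had 0 to 7 counts, with 23 libraries at 0, and an r of 0.04. In the 3 libraries with the most Ttr counts, Otx2 had 4, 4 and 2 counts and Prlr 0, 1 and 4. At counts this low a companion change could have been missed: the approximate 95% interval of the slope was -0.18 to 0.08 for Otx2 and -0.12 to 0.16 for Prlr.

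Aqp1, the water channel of the choroid plexus, had 0 to 144 counts with a median of 10 and an r of -0.08. Female 9 of rat batch 4, with the most Ttr counts, had 1 Aqp1 count. Female 14 of rat batch 4 had the highest Aqp1 count, 144, and the highest count of the sulfate transporter Slc13a4, 153, with 39 Ttr counts. The next highest for both genes were male 7 of rat batch 4, with 75 and 146 counts, and female 12 of rat batch 4, with 44 and 112. These rats had 14 and 8 Ttr counts. Female 14 also had the highest counts of all 3 matched genes of leptomeninges and fibroblasts: 322 of the matrix protein Dcn and 630 of Igfbp2, against medians of 86 and 36 over all libraries, and the highest of the organic anion transporter Slc22a6. Of the remaining choroid plexus genes, Slc13a4, Abca4 and Trpm3 had r values of -0.04, 0.06 and -0.02.

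**Figure D3:**
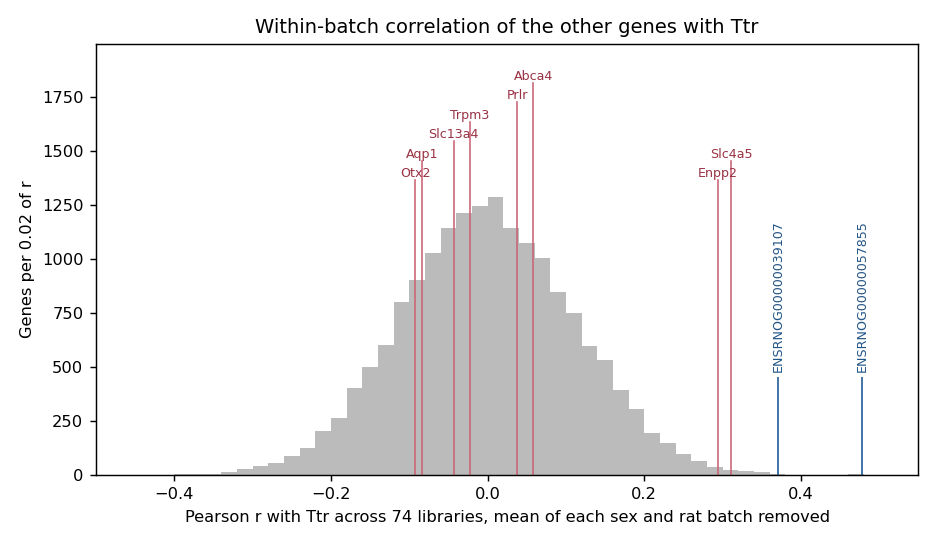
Number of genes per 0.02 of r (y axis) by Pearson r with Ttr over 74 libraries, with the mean of each sex and rat batch removed (x axis). Red lines mark the 8 matched choroid plexus genes and blue lines 2 low-count genes described in the text, with line heights only to place the names. Slc4a5 (0.31) and Enpp2 (0.29) lie apart from the other 6 choroid plexus genes, whose r runs from -0.09 to 0.06.

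The summed level of the 8 choroid plexus genes was higher in median in rat batches 4 and 6, as Ttr was, although its ranges overlapped in the 4 batches. The median sum was 64.9 CPM in rat batch 2 and 65.2 CPM in rat batch 3, with ranges of 51.9 to 97.4 and 56.0 to 80.7 CPM. It was 81.5 CPM in rat batch 4 and 80.7 CPM in rat batch 6, with ranges of 70.3 to 101 and 60.8 to 90.1 CPM. Enpp2 and Trpm3, which are not confined to choroid plexus, made up most of the sum. They were also the 2 of the 8 genes that were called between rat batches, beside 53.5% of all genes. Medians were also higher in rat batches 4 and 6 for 2 other lists. The summed level of the 4 ependymal and motile cilia genes had medians of 23.1 and 21.1 CPM in rat batches 2 and 3 and of 32.4 and 32.5 CPM in rat batches 4 and 6. The single matched oligodendrocyte gene had medians of 63.7, 58.1, 67.7 and 76.6 CPM in rat batches 2, 3, 4 and 6. The sums were not tested, nor was their part in the Ttr values.

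Genes that act in retinol and thyroid hormone transport and signalling gave no call. Of 29 listed, 7 were matched and none passed, with r between -0.09 and 0.10. Rbp4, the retinol carrier that binds Ttr, had 329 to 1659 counts and an r of -0.06. Dio3, the deiodinase that inactivates thyroid hormone, had 6 to 147 counts and an r of -0.04. Aldh1a1, which makes retinoic acid, and Rxra, a retinoid receptor, had r values of 0.09 and 0.10.

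Markers of other cell types that the tissue could hold gave no call either. Of 98 genes in 9 lists, 21 were matched by symbol and 1 of these, Slc17a6, had an unadjusted p under 0.05, beside 2.74% of all genes. The endothelial list had no matched member. The 4 ependymal genes had r between -0.05 and 0.10, the highest being Mlf1, with 2 to 371 counts, and Pifo, a gene of motile cilia, had an r of 0.07. The 3 matched genes of leptomeninges and fibroblasts had r between -0.10 and -0.01. The microglial complement genes C1qa and C1qc had r values of 0.23 and 0.22, and P2ry12 had 0.07. The astrocyte gene Aldh1l1 had an r of 0.06 and Hbb, the beta globin of blood, 0.13. The 4 striatal genes had r between -0.10 and -0.02.

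Among the 4 matched genes of neighboring neurons, Slc17a6, the vesicular glutamate transporter of thalamic and other subcortical neurons, had an r of 0.31 and a rho of 0.34 (slope 0.29 ± 0.11, SE, adjusted p = 1.00 by limma). It had 0 to 789 counts with a median of 7. Its highest library, male 10 of rat batch 4, had 14.3 CPM of Ttr. Neurod6, a cortical transcription factor, had an r of 0.09, Trh 0.16 and Dlk1 -0.02. The part of neighboring tissue in the Ttr values was not tested.

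The genes most like Ttr in pattern were ranked by r among genes averaging 3 or more on the log2 scale. The 20 highest had r between 0.33 and 0.38 over 74 libraries, and 6 of them had a symbol. They were Cks1b (r = 0.38), a cofactor of cell cycle kinases, AABR07007642.1 (0.35), Adgrg6 (0.35), an adhesion G protein-coupled receptor, Rubcnl (0.35), Afap1l2 (0.34) and LOC100910978 (0.33). Of the 5 lowest, ENSRNOG00000016967 had an r of -0.43, AABR07001807.1 -0.41 and Ptgs1, which encodes cyclooxygenase 1, -0.39. AABR07001807.1 also had the smallest permutation p of any gene by rho (rho = -0.50, unadjusted p = 1e-05, the smallest the permutations can give). The limma adjusted p of all 25 was 1.00.

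In single batches, 1 gene was called, in rat batch 4. ENSRNOG00000057855, which has no symbol here, had a slope of 0.48 ± 0.08 on Ttr over 26 libraries (SE, adjusted p = 0.0191 by limma), 1 gene of 17179, or 0.00582%. The adjusted p covers the genes of a single batch and is not adjusted for the testing of 4 batches. Rat batches 2, 3 and 6 gave no call, with smallest adjusted p values of 0.0508, 0.81 and 0.48 and 512, 674 and 507 genes at an unadjusted p under 0.05. The call in rat batch 4 was lost without any 1 of 7 libraries (males 4, 6, 9 and 12 and females 2, 9 and 13), with an adjusted p of 0.0501 to 0.187 by limma, and ENSRNOG00000057855 was called again without each of the other 19.

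ENSRNOG00000057855 was itself near the limit of detection, at 0 to 8 counts with 31 of 75 libraries at 0. In female 9, male 12, male 10, female 13 and female 2 of rat batch 4, which had 176 to 303 Ttr counts, it had 5, 6, 4, 7 and 8 counts. In male 4 of rat batch 6, with 274 Ttr counts, it had 8. In male 7 of rat batch 2, with 158 Ttr counts, it had 1. Males 1 and 2 of rat batch 4, with 135 and 97 Ttr counts, had 2 each. In rat batch 3, female 5 and male 3 had the most Ttr counts, 32 each, and no count of ENSRNOG00000057855, whereas female 3 had 7 with 15 Ttr counts.

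Over all 4 batches its r with Ttr was 0.48 and its rho 0.40, the highest r of any gene, and its slope was 0.28 ± 0.07 (SE, adjusted p = 0.497 by limma). Its slopes were 0.20 ± 0.13, -0.08 ± 0.16 and 0.43 ± 0.21 (SE) in rat batches 2, 3 and 6. The difference of these slopes between batches gave an unadjusted p of 0.00967 for this gene and an adjusted p of 1.00 by limma. Over all genes that interaction called 0 (0%), with 467 genes at an unadjusted p under 0.05 and a smallest adjusted p of 0.752.

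A further low gene, ENSRNOG00000039107, had 0 to 31 counts with 43 of 75 libraries at 0, and an r of 0.37. Its r was -0.36, 0.09, 0.63 and 0.64 in rat batches 2, 3, 4 and 6, and its slope fell from 0.22 to 0.03 without rat batch 4. The difference of its slopes between batches gave an unadjusted p of 0.000687 and an adjusted p of 1.00 by limma. Its highest library was male 10 of rat batch 4, which had 14.3 CPM of Ttr. The next highest, with 20 counts, was female 14 of rat batch 4, which had 39 Ttr counts. ENSRNOG00000039107 had 7, 8 and 6 counts in the 3 libraries with the most Ttr counts but 0 in female 2 of rat batch 4 and in male 7 of rat batch 2. It and ENSRNOG00000057855 were singled out after their values had been seen.

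A pair of other genes with a mean below 3 on the log2 scale had an r above that of ENSRNOG00000039107, and both are named with their values known. ENSRNOG00000027103 had an r of 0.46 and a rho of 0.48 (slope 0.37 ± 0.09, SE, adjusted p = 0.497 by limma), with r of 0.44, 0.65, 0.55 and -0.03 in rat batches 2, 3, 4 and 6. It had 0 to 515 counts with a median of 2, and its highest library was male 10 of rat batch 4, as for Slc17a6 and ENSRNOG00000039107. ENSRNOG00000015058 had 0 to 7 counts, an r of 0.41 and a rho of 0.33 (slope 0.23 ± 0.06, SE, adjusted p = 1.00 by limma), with r of 0.73, 0.45, 0.17 and 0.39 in the same batches.

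**Figure D4:**
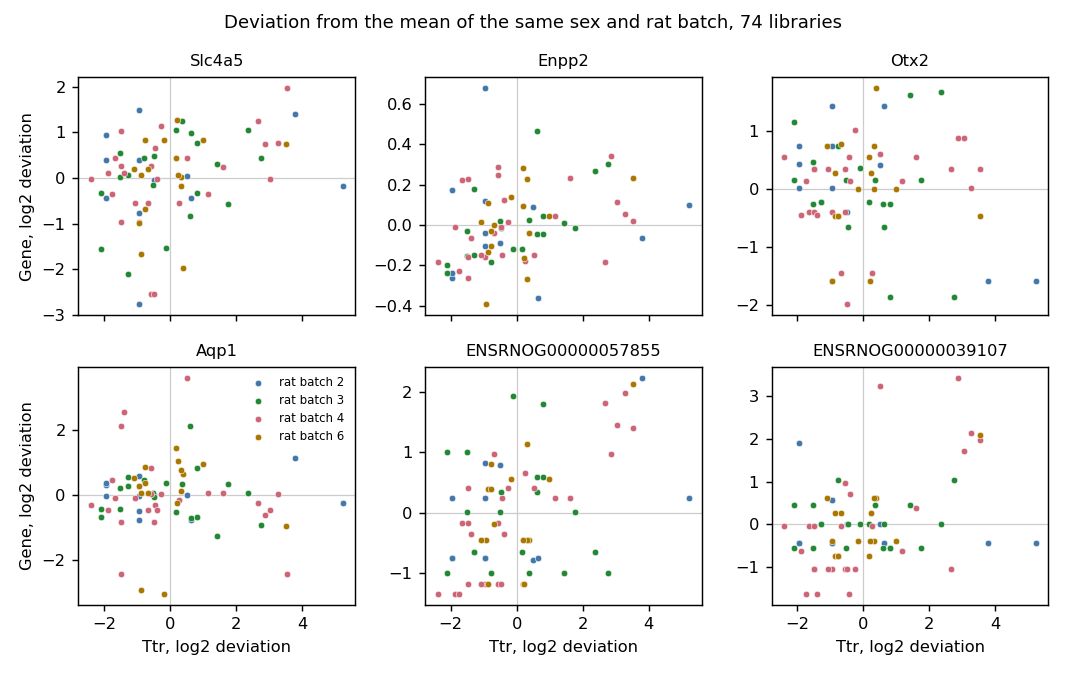
Deviation of 6 genes (y axes) and of Ttr (x axes) from the mean of the same sex and rat batch, in log2 units, over 74 libraries colored by rat batch. The r is 0.31 for Slc4a5, -0.09 for Otx2 and -0.08 for Aqp1, with no slope called, and the 2 low-count genes named by identifier are high in several libraries with high Ttr.

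No measured feature of the libraries passed a test against Ttr. Within sex and batch, r was -0.15 with the log2 total count, 0.11 with the number of genes at 0 and -0.13 with the median correlation to the other libraries. The rho values were -0.08, 0.08 and -0.06. The permutation p was at least 0.245 for r and at least 0.503 for rho, and the adjusted p over the 3 measures was 0.403 for each r and 0.587 for each rho. Without the 2 libraries whose Ttr lay farthest from the median, r was -0.15, 0.10 and -0.16.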

How the data were processed

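Tissue RNA of 75 rats was measured by single-end mRNA sequencing. Per the labels and the study's methods, the authors trimmed reads with cutadapt, counted genes with RSEM against the Ensembl rat transcriptome (Rnor_6.0), scaled counts to a common upper quartile with DESeq2, removed low genes and deposited log2 values after adding 1. Of 86 samples, 11 that the labels mark as removed have no column and were not analysed here. Taken out of log2 and less the added 1, the deposited values were within 0.0004% of whole numbers, that is, rounded scaled counts. Each library's scaling factor (0.708 to 2.18) was found from the spacing of values up to 400, searched between 0.55 and 2.5. Dividing by it and rounding to a whole number gave the recovered counts. Where the factor is below 1, neighboring read counts can share a deposited value, so the recovered count is then not unique. Depth was 8455344 to 26145621 counts.

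The log2 values were tested with limma 3.58.1 (lmFit, eBayes with trend) in R 4.3.3, with Benjamini-Hochberg adjustment over all genes and a threshold of 0.05. The lone library of rat batch 5 was left out of the fits. Correlations used 100000 permutations within sex and batch (numpy 2.4.6, scipy 1.17.1). On simulated counts with slopes on Ttr of 0.5 and 0.2, the fit of 17180 genes called 100 of 100 and 100 of 100, with 12 unchanged genes called. Those genes had a mean log2 value above 5, so the simulation does not speak for lower genes. All genes were drawn independently, with the same dispersion (spread beyond counting error) and without batch differences. The simulation therefore does not speak for genes that vary more between rats either. Alternatives covered pseudocounts of 0.1 and 8, a mean filter of 3, rank transformation, quantile normalization, robust fitting, limma voom on the whole counts with trimmed-mean scaling, depth, 5 expression components, and libraries or batches left out. Column run and Ttr in CPM were added after seeing the data.

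The gene identifiers carry no symbols in the table, so symbols came from the identifier and symbol pairs in the study's supplementary tables, which covered 3254 of 17180 genes. Those tables hold genes whose expression or splicing was linked to nearby genetic variants, or whose expression was specific to a brain region. The matched list members are therefore not a neutral sample of their lists. Genes named were the 20 highest and 5 lowest by r and members of fixed lists, that is, any that passed and those listed first, and further list members were named after their values were seen. Ttr and the lists were chosen with earlier results of these data known. Libraries are named by sex, rat batch and a number in deposition order. One gene was taken out of the lists before they were matched and is not reported here, and other list members that are not named are covered by the counts and ranges of their lists.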

Additional observations from a re-analysis of the deposited data

Results flagged for a closer look

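Male 4 of rat batch 6 had a Ttr log2 value of 8.19 (274 counts, 16.4 CPM), and the gap to the next of the 8 males of that batch was 0.749 of the whole range, above Dixon's critical value of 0.526. It was the only one of 4 groups of 4 to 10 libraries past that limit, and chance flags about 1 in 20 such groups. Larger groups, among them both sexes of rat batch 4, were not tested this way. Male 7 of rat batch 2 lay farther from the mean of its sex and batch, by 5.22 log2 units against 3.52. Its ratio was only 0.201, with male 5 of that batch next at 5.73. Without male 4 of rat batch 6, the test of rat batches kept its call.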

How the results depend on the processing

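The rat batch difference of Ttr kept its call under 12 of 14 alternatives, with adjusted p from 9.34e-06 to 0.00381 by limma. It lost it with the column run as a covariate (0.954, chosen after seeing the data) and with 5 expression components as covariates (0.183), and the cause was not tested. Leaving out each library gave 2.21e-06 to 0.000165. The sex difference stayed above 0 and uncalled in all alternatives (0.10 to 0.44 log2 units, and 0.16 to 0.37 when leaving out each library). The count of genes that follow Ttr, 0, became 1 with a pseudocount of 8 and 1 with rat batch 3 left out, both ENSRNOG00000057855 (adjusted p = 0.00496 and 0.0122 by limma), and 2 with Ttr as CPM, chosen after seeing the data (ENSRNOG00000057855 and ENSRNOG00000039107). It was 0 in the other 16 alternatives and 0 to 0 when leaving out each library. Within single batches, leaving out each library gave 0 to 1 genes in rat batches 2 and 4 and 0 to 0 in rat batches 3 and 6. The call in rat batch 2 was ENSRNOG00000030174, with a negative slope, without male 6. The slopes of the 25 named and 2 added genes kept their sign in all 430 alternative fits, but without rat batch 4 the slope of ENSRNOG00000057855 fell from 0.28 to 0.14 and that of ENSRNOG00000039107 from 0.22 to 0.03. No paired analysis was possible because replicate numbers only name the rats. Depth limits genes such as Otx2 and Prlr, whose counts do not exceed 10, and 14 libraries with 3 or fewer Ttr counts cannot be ordered.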
